A study of Mus musculus with 2 samples.

Results

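Imprinted genes of 2 domains of mouse chromosome 7 were examined, 5 of the Snrpn domain (Snrpn, Ndn, Magel2, Mkrn3 and Ube3a) and 5 of the Kcnq1 domain (Kcnq1, Kcnq1ot1, Phlda2, Slc22a18 and Cd81). They were chosen by name from 23246 genes in the files, and 7 of the 10 were among the 13800 genes that reached 1 FPKM in at least 1 library and could be compared. FPKM is a count of fragments corrected for the length of the transcript and the depth of the library. The RNA came from spermatogonial progenitor cells (SPCs), the germ cells that sustain spermatogenesis, of mouse testes (strain C57BL/6) taken 8 days after birth. It made 2 libraries of poly(A) RNA, 1 labelled wild-type and 1 labelled Dnmt3l knockout. How the cells were isolated and how many mice went into a library are not given in the sources used here. As each genotype has 1 library, differences could not be checked against replicates, no test was made, and each value describes these libraries only.

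Imprinted genes are transcribed mainly from the copy inherited from 1 parent, and most of them lie in clusters governed by a control region that is methylated in the egg or in sperm. The control regions of both domains, at the Snrpn promoter and at the Kcnq1ot1 promoter, receive their methylation in the growing oocyte, where DNMT3L, a partner of the de novo DNA methyltransferases without catalytic activity of its own, is required. In male germ cells these regions are normally unmethylated on either copy. Snrpn, Ndn, Magel2, Mkrn3 and Kcnq1ot1 are known as paternally expressed. Ube3a (in neurons), Kcnq1, Phlda2, Slc22a18 and Cd81 (Cd81 in placenta) are known as maternally expressed. The files hold no information on alleles, so which parental copy was transcribed cannot be read from them.

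The following promoter windows are shown because Snrpn has several starts and its RefSeq transcripts had signal from the main start only, because Kcnq1ot1 begins at the control region of its domain, and because Ndn and Magel2 lie side by side at very different levels. Each is 5′ to 3′, from 250 bases before to 50 bases after the gene start, from RefSeq (GRCm38.p6), with CG dinucleotides, the sites of DNA methylation, in capitals.
Snrpn, chr7:60005150-60005449, minus strand: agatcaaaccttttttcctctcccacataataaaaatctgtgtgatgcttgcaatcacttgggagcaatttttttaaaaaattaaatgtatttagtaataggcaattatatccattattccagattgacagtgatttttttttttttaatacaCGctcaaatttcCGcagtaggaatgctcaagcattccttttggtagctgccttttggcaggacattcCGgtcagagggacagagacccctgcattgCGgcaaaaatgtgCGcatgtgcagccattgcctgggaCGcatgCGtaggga
Snrpn, upstream start, chr7:60140176-60140475, minus strand: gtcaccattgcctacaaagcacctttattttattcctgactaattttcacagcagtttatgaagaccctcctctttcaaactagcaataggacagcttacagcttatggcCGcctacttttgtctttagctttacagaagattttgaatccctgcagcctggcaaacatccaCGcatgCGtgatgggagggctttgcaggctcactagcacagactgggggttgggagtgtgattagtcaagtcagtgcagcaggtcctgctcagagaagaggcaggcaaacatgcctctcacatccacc
Kcnq1ot1, chr7:143296498-143296797, minus strand: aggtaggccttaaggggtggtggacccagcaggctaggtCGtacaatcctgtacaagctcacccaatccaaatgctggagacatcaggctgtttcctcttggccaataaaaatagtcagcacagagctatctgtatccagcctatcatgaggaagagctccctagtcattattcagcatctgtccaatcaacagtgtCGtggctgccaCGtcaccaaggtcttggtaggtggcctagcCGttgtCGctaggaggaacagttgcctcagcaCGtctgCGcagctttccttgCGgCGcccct
Ndn, chr7:62348027-62348326, plus strand: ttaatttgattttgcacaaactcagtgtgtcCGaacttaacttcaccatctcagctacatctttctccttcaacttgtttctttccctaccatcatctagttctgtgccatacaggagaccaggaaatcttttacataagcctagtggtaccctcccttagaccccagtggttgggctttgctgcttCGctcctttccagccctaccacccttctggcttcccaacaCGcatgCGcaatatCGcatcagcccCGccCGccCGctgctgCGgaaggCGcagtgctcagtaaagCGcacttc
Magel2, chr7:62376729-62377028, plus strand: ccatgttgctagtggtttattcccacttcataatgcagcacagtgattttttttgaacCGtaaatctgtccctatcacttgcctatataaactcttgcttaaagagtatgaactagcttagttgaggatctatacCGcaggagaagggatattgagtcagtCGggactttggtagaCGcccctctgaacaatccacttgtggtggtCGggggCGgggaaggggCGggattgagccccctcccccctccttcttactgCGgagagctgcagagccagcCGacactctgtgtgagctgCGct

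The main Snrpn window held 7 CG, the upstream window 3, Kcnq1ot1 9, Ndn 11 and Magel2 10, against a median of 7 over 32851 promoter windows of the same length. The hexamer TGCCGC, which the imprint-protecting zinc finger protein ZFP57 binds when methylated, was searched on either strand. It occurred once in the main Snrpn window, read there as GCGGCA, in none of the other windows of the 10 genes, and in 11.6% of all windows. Besides these 2 starts, the table lists another 2 for Snrpn. All 4 windows held the palindrome ACGCATGCGT, the longest run of letters common to them, which was held by 35 of the 32851 windows (0.107%), these 4 included, and was chosen after reading the sequences. It does not overlap the hexamer. It began 35 bases after the main start and 64 to 79 bases before the other starts. Such matches describe the letters of the windows and not sites of binding. The windows of Ube3a, Phlda2 and Cd81 were the richest among the 10 genes, with 29, 26 and 23 CG, followed by Mkrn3 with 15, and that of Slc22a18 held 2. 9 of the 10 genes had a window in the table.

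As a check of the labels, Dnmt3l stood at 1.67 FPKM in wild-type RNA and was listed at 0 in knockout RNA. All 8 spermatogonial markers were found in both libraries (among them Ddx4 at 138.9 and 122.7 FPKM and Dazl at 222.6 and 136.7), with a summed level of 746.1 and 677.5 FPKM, the wild-type value first, as in all pairs of values that follow without a label. Of these 8 markers, 4 were higher and 4 lower in knockout RNA, and single markers differed far more than the sum. Kit, a receptor of differentiating spermatogonia, was at 21.7 and 5.93 FPKM and was the 1 marker at least 2-fold lower. Zbtb16 was at 55.4 and 27.9 FPKM and Gfra1, both known from undifferentiated spermatogonia, at 27.4 and 48.5 (these 3 were named after their values were seen). Markers of somatic cells of the testis were also present. Their summed levels were 469.0 and 1084 FPKM for Sertoli cells (10 of 10 markers higher in knockout RNA), 391.4 and 814.5 for macrophages (7 of 7) and 60.5 and 135.7 for Leydig cells (4 of the 5 compared, with Star listed at 0 in both). They were 52.2 and 105.6 for endothelial cells (4 of 6) and 561.2 and 769.7 for peritubular and stromal cells (5 of 7). The summed level of each somatic list was thus higher in knockout RNA. More cells of a type and more RNA per cell cannot be told apart in such samples, and the part of these shifts in the results was not tested. The median log2 ratio was 0.21 over the 12500 genes with at least 1 FPKM in each library, and ratios given against the median gene have it subtracted.

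Among the 10 genes, Snrpn was higher in knockout RNA by more than 2-fold with bounds apart. Ube3a, counted without the models beyond its RefSeq 3′ end, was lower by more than 2-fold with bounds apart. Ndn was 1.61 and Cd81 1.43 times as high. The bounds of Magel2, Mkrn3, Phlda2 and Slc22a18 overlapped between the libraries, although Slc22a18 was 3.24 times as high. Kcnq1 (higher) and Kcnq1ot1 (lower) had bounds apart but stayed under 1 FPKM. At least 2-fold, on the scale of log2(FPKM + 1) that is used throughout and understates the differences of low genes, 1 of 7 was higher (7.7% of all genes compared) and 1 of 7 was lower (3.51% of all genes compared). At 1.5-fold the counts were 3 of 7 (22.7% of all genes) and 1 of 7 (9.04%), and at 4-fold 0 of 7 (1.94%) and 0 of 7 (0.978%). With at least 2-fold and bounds apart they were 1 of 7 (7.49%) and 1 of 7 (3.45%). The median log2 ratio of the 7 was 0.51, beside 0.22 over all genes compared. Relative to the median gene, 5 lay above and 2 below. Of the 3 compared genes known as paternally expressed, 2 lay above and 1 below. Of the 4 known as maternally expressed, 3 lay above and 1 below.

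**Figure D1:**
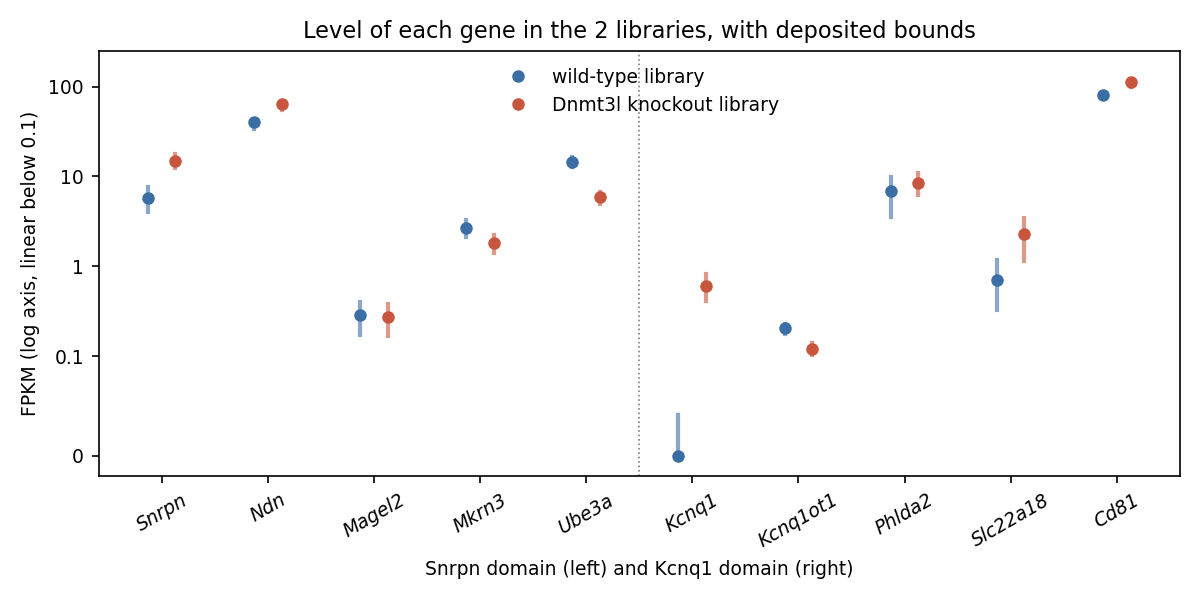
FPKM of each gene in the wild-type (blue) and Dnmt3l knockout (red) library, on a log axis that is linear below 0.1. Points are the summed values and vertical lines the summed bounds deposited with them. Levels run from 0 for Kcnq1 in wild-type RNA to 113.6 FPKM for Cd81 in knockout RNA, and the lines of Snrpn, Ndn, Ube3a, Kcnq1, Kcnq1ot1 and Cd81 do not overlap between libraries.

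The order of levels was Cd81, Ndn, Ube3a, Phlda2, Snrpn, Mkrn3, Slc22a18, Magel2, Kcnq1ot1 and Kcnq1 in wild-type RNA. Neighbours in that order whose bounds overlapped, and which were therefore not separated, were Phlda2 and Snrpn, Slc22a18 and Magel2, and Magel2 and Kcnq1ot1. In knockout RNA Snrpn took rank 3 and Ube3a rank 5, and the bounds overlapped only for Phlda2 and Ube3a and for Slc22a18 and Mkrn3. Cd81 was above 93.98% and Ndn above 84.8% of the genes compared in wild-type RNA, whereas Magel2 was above 2.95% and Kcnq1ot1 above 2.74% of them. The bounds come from the authors' files, describe the estimate within a library, and say nothing of the spread between mice. Bounds that did not overlap were common over all genes, at 35.4% higher and 16.2% lower in knockout RNA, against 3 of 7 (Snrpn, Ndn and Cd81) and 1 of 7 (Ube3a) here.

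**Figure D2:**
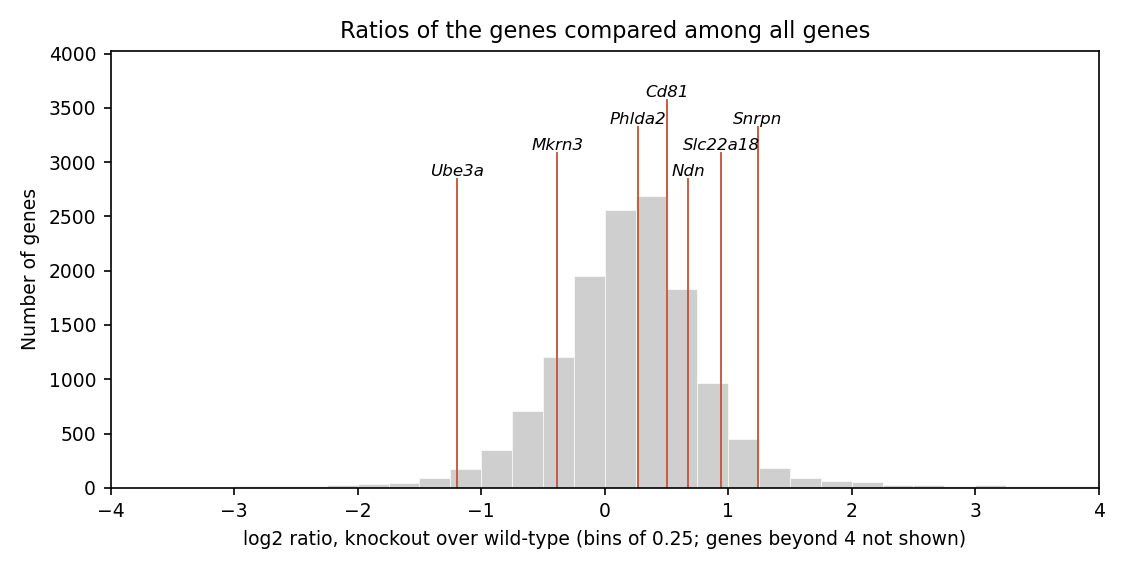
Histogram of the log2 ratio, knockout over wild-type, of all 13800 genes compared (grey, number of genes per bin of 0.25), with the 7 genes of the domains that were compared as red lines. Snrpn at 1.24 and Ube3a at -1.19 lie in the tails, and the other 5 lie between -0.38 and 0.94.

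Snrpn encodes SmN, a core protein of spliceosomal small nuclear ribonucleoproteins, and the same transcript also carries the short upstream reading frame of Snurf. Snrpn (chromosome 7, 59982502 to 60140219, minus strand, mm10) was at 5.77 FPKM in wild-type RNA (bounds 4.02 to 7.68) and at 15.0 FPKM in knockout RNA (12.4 to 17.8). The knockout value was thus 2.60 times the wild-type value, and the bounds did not overlap. On the log2 scale the difference was 1.24 on the deposited values and 1.04 against the median gene, above 95.5% of the genes compared. With Snurf summed in, the deposited values were 7.65 and 16.6 FPKM and the difference 1.03. As summed models per exon base, on either strand, it was 0.76, under 2-fold.

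This difference rested on an assembled model and not on the RefSeq transcript. The RefSeq transcript NM_013670, of 10 exons and 1970 nt, which begins within the main window shown above, was at 2.80 FPKM (2.07 to 3.51) in wild-type RNA and 3.26 FPKM (2.47 to 4.07) in knockout RNA, with overlapping bounds and a log2 ratio of 0.17. Snurf, counted through NM_033174 of 1971 nt from the same first exon, was at 1.89 and 1.64 FPKM, again with overlapping bounds. NM_001082961 and NM_001082962, whose first exons lie far upstream, with NM_001082962 starting within the upstream window shown above, were listed at 0 in both libraries, with upper bounds of 0.059 to 0.067 FPKM. The assembled models were at 2.97 FPKM (1.96 to 4.03) in wild-type RNA, with 11 exons and 1221 nt, and at 11.7 FPKM (9.94 to 13.6) in knockout RNA, with 10 exons and 1188 nt. They made up 51.5% of the wild-type and 78.3% of the knockout value of the gene.

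Both models begin inside the first intron of NM_013670, 2168 nt (wild-type) and 2496 nt (knockout) downstream of its start, in a short first exon of 43 and 55 nt that shares no base with a RefSeq exon of the gene. Both end 715 or 716 nt short of the RefSeq 3′ end, and both hold the entire 720 nt of SmN coding sequence and 93.4% of the Snurf coding sequence. Along NM_013670 the summed level of Snrpn and Snurf models was 4.68 and 4.89 FPKM over the first 121 nt. From nt 122 to nt 1254 it was 7.65 and 16.6 FPKM, a log2 ratio of 1.03. Over the last 715 nt it was again 4.68 and 4.89 FPKM. The summed models thus differed over the inner part that carries the coding sequence and stood level at the ends. This follows from the values and borders of the models given above and is not a count of reads per base. A library-specific model is an estimate by assembly, so how the reads of this gene were divided between the models cannot be checked from the files.

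**Figure D3:**
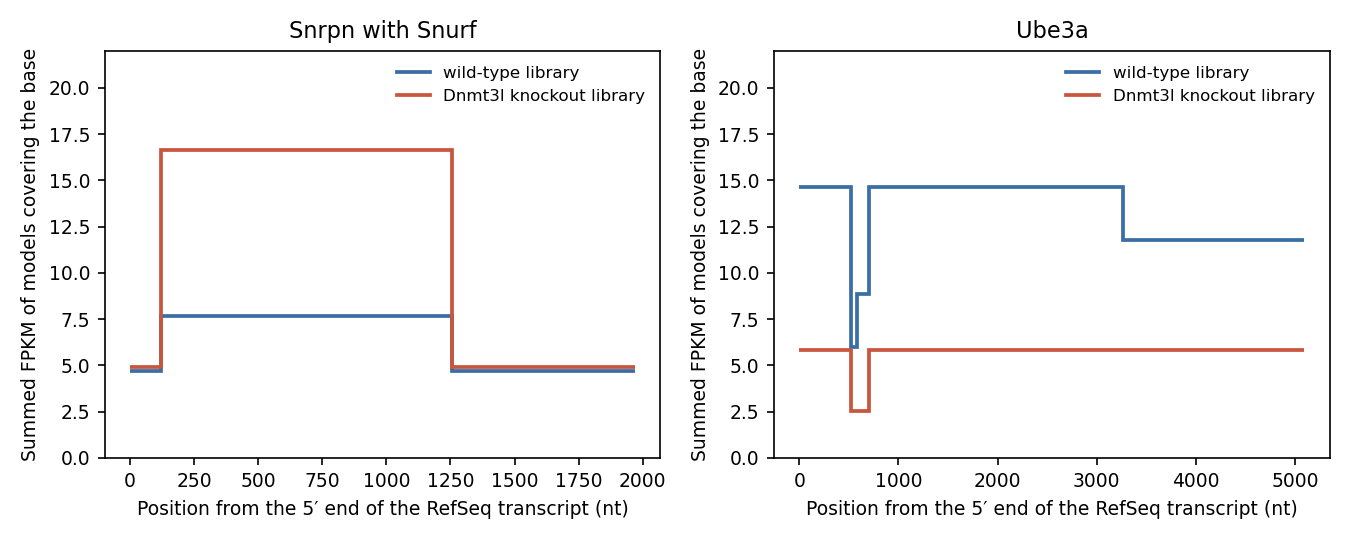
FPKM added up over the models that cover each base of NM_013670 (left, Snrpn with Snurf) and of NM_011668 (right, Ube3a), by position from the 5′ end in nt, for the wild-type (blue) and Dnmt3l knockout (red) library. On Snrpn the summed models differ from nt 122 to nt 1254 (7.65 against 16.6 FPKM). On Ube3a the sum is higher in the wild-type library along the whole transcript.

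The other Sm proteins, with which SmN assembles, were far more abundant and were all slightly higher in knockout RNA. Snrpb, whose product SmB is the close relative that SmN can replace, was at 247.3 and 351.4 FPKM, which is 42.9 times Snrpn in wild-type RNA and 23.4 times in knockout RNA. All 7 were higher with bounds apart, by a median log2 ratio of 0.39, and 0 of 7 reached 2-fold. For Snrpd2, Snrpe and Snrpf the deposited FPKM lay above its own upper bound in both libraries, so their bounds are a poor guide. Snrpd2, for example, was at 348.8 and 458.4 FPKM with upper bounds of 244.2 and 319.2. The median log2 ratio was 0.41 over all 3244 genes of 1000 to 2000 nt, to which Snrpb with 1121 nt belongs, and 0.54 over all 1213 genes under 1000 nt, to which the other 6 belong. The part of length in these values was not tested.

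Ndn encodes necdin, a protein of the MAGE family that restrains cell proliferation, and was the most abundant gene of its domain. It (chromosome 7, 62348277 to 62349927, plus strand, 1 exon) was at 39.96 FPKM in wild-type RNA and 64.4 FPKM in knockout RNA, 1.61 times as high, with a log2 ratio of 0.67 on the deposited values and 0.47 against the median gene. Its only model was the RefSeq transcript, with a mean read depth of 126.2 and 223.3 per base. In both libraries the deposited FPKM lay above its own upper bound, 39.85 and 62.4, as it lay outside the bounds for 1.96% and 2.71% of the RefSeq transcripts above 0. The summed levels of the somatic markers were also higher, as given above. Genes of 1000 to 2000 nt, to which Ndn belongs, had a median log2 ratio of 0.41. The part of either in the Ndn value was not tested.

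Magel2, an intronless MAGE gene whose product acts with the ubiquitin ligase TRIM27 in protein recycling, starts 28.7 kb from Ndn. It (62376979 to 62381640, plus strand) was at 0.289 FPKM (0.172 to 0.396) and 0.275 FPKM (0.168 to 0.385), below the 1 FPKM needed for a comparison. Ndn was at 138.4 times its level in wild-type RNA and 234.0 times in knockout RNA. Its bounds overlapped almost entirely, at a read depth of 0.924 and 0.969 per base. Of 3 partners of its product, Trim27 was at 13.2 and 35.1 FPKM (log2 ratio 1.34), Usp7 at 65.9 and 48.7 and Vps35 at 34.5 and 23.7. The knockout value of Trim27 includes 2 assembled models and its wild-type value 0. The highest read depth of a single Trim27 transcript was 41.0 and 46.2 per base.

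Mkrn3, an intronless gene for a makorin ubiquitin ligase known for delaying puberty through the hypothalamus, was at 2.68 FPKM (2.104 to 3.24) in wild-type RNA and 1.82 FPKM (1.39 to 2.24) in knockout RNA (62417593 to 62420139, minus strand). Its bounds overlapped, and the log2 ratio was -0.38, or -0.59 against the median gene. Peg12, the next gene outward and also paternally expressed, was at 1.13 and 1.12 FPKM. Of the intronless genes Ndn, Magel2 and Mkrn3, Ndn alone was higher in knockout RNA.

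Ube3a encodes the ubiquitin ligase E6AP, lost from the maternal copy in Angelman syndrome. It (59228750 to 59306727, plus strand) was at 14.6 FPKM (12.7 to 16.5) in wild-type RNA and 5.82 FPKM (4.96 to 6.72) in knockout RNA, 0.398 times as high. The bounds did not overlap, and the log2 ratio of -1.19, or -1.40 against the median gene, was lower than that of all but 2.43% of the genes compared. NM_011668, of 13 exons, was at 6.00 and 2.53 FPKM and NM_001033962, of 11 exons, at 5.77 and 3.29 FPKM, both with bounds apart. NM_173010, which ends upstream of the last exons, was listed at 0 in both. An assembled model of 13 exons added 2.85 FPKM in wild-type RNA and none in knockout RNA. Without it the values were 11.8 and 5.82 FPKM, a 2.02-fold difference in FPKM. On the log2(FPKM + 1) scale that ratio was -0.90, short of 2-fold through the pseudocount.

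Along NM_011668 the summed level of the models was higher in wild-type RNA at every base, which follows from the model values given above. It was 14.6 and 5.82 FPKM over nt 708 to 3265, inside the coding sequence, and 11.8 and 5.82 FPKM over the last 1832 nt. Ube3a is a long transcript of 5097 nt. Over all 2425 genes compared with 4000 to 6000 nt the median log2 ratio was -0.03, against 0.41 over 3244 genes of 1000 to 2000 nt, and the part of length in the Ube3a difference was not tested.

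Beyond the RefSeq 3′ end of Ube3a, 59306727 in the files, lay 2 further models in each library. GENCODE M21 (same build) carries the exons of Ube3a on to 59311536, and all 4 models lie wholly (100%) within these exons. The longer ones ran from 59306962 to 59310857 in wild-type RNA and from 59307576 to 59310884 in knockout RNA. The files assign them to the minus strand, where they overlap a transcript of Snhg14, the antisense RNA that runs from the Snrpn side through Ube3a in neurons, so they were counted for Snhg14. They were at 6.77 FPKM (6.06 to 7.46) and 4.96 FPKM (4.35 to 5.57), 0.733 times as high in knockout RNA, a log2 ratio of -0.38. The shorter ones, which have no strand and were counted for no gene, went in the other direction with overlapping bounds, at 1.74 FPKM (0.575 to 2.76, from 59310946 to 59311481) and 2.41 FPKM (1.07 to 3.32, from 59310961 to 59311534). The protocol describes no step that marks strand, so reads of Ube3a and of its antisense partner cannot be told apart here, and the Ube3a and Snhg14 values at this end are uncertain.

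Snhg14 as a whole was at 9.94 and 7.71 FPKM. Of this, 3.18 and 2.75 FPKM came from transcripts just downstream of Snrpn, at 59969577 to 59974431, and the remainder from the models over the Ube3a end. The 3 UBE3A partners were nearly level or lower, with Herc2 at 42.9 and 43.6 FPKM, Neurl4 at 19.3 and 20.5 and Mapk6 at 35.4 and 26.3.

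Of the 13 neighbours of the Snrpn domain 8 were compared, and all 8 lay below the median gene. Their median log2 ratio was -0.20 as deposited, beside 0.22 over all genes compared, and 0 of 8 were 2-fold different. Their longest RefSeq transcripts ran from 1971 nt (Snurf) to 15346 nt (Herc2). Over all genes compared the median was 0.41 at 1000 to 2000 nt, 0.20 at 2000 to 4000 nt, -0.03 at 4000 to 6000 nt and -0.21 from 6000 nt. The part of length in the values of the 8 was not tested. Atp10a, a phospholipid flippase gene beside Ube3a, was at 6.31 and 6.21 FPKM. Outside the imprinted region, Tubgcp5 was at 18.8 and 11.8 FPKM, Cyfip1 at 29.3 and 24.1 and Nipa2 at 11.6 and 8.91, these 3 with bounds apart. The wild-type value of Tubgcp5 includes 2 assembled models and its knockout value 0. The highest read depth of a single Tubgcp5 transcript was 40.3 and 41.2 per base, whereas for Cyfip1 and Nipa2 it was lower in knockout RNA. Gabra5, Gabrg3 and the pigment gene Oca2 stayed under 1 FPKM in both libraries, and Nipa1 was listed at 0 in both.

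Kcnq1 encodes a voltage-gated potassium channel subunit. It (143107254 to 143427042, plus strand, 16 exons) was listed at 0 in wild-type RNA, with an upper bound of 0.0407 FPKM, and at 0.610 FPKM (0.407 to 0.814) in knockout RNA. The bounds did not overlap, but the gene stayed under the 1 FPKM needed for a comparison, and its read depth in knockout RNA was 1.98 per base. Kcnq1ot1, the unspliced noncoding RNA of 83437 nt that starts at the control region inside Kcnq1 and silences the genes around it on the paternal copy, also stayed under 1 FPKM and was not compared. It (143213111 to 143296547, minus strand) measured 0.203 FPKM (0.178 to 0.229) in wild-type RNA and 0.120 FPKM (0.102 to 0.139) in knockout RNA, 0.592 times as high, with bounds apart and read depths of 0.627 and 0.391 per base.

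Kcnq1ot1 spans 1 of the 16 Kcnq1 exons and shares 121 exon bases with the gene on the opposite strand. Without strand, reads in the shared stretch cannot be told apart, so both values of the pair are uncertain. No assembled model was added to either gene in either library. The accessory KCNE subunits of the channel were likewise low: of 4 found in the files, Kcne4 alone passed 1 FPKM, at 2.94 and 2.63, and Kcne1, Kcne2 and Kcne3 stayed at or under 0.684 FPKM.

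Phlda2, a pleckstrin homology domain gene known for restraining growth of the placenta, was at 6.89 FPKM (3.49 to 9.84) in wild-type RNA and 8.52 FPKM (6.24 to 10.8) in knockout RNA (143501548 to 143502524, minus strand), with overlapping bounds. Its log2 ratio was 0.27 on the deposited values and 0.07 against the median gene. The RefSeq transcript alone stood at 3.53 and 7.62 FPKM (log2 ratio 0.93, bounds apart), as 48.8% of the wild-type value but 10.5% of the knockout value came from assembled models. The 2 wild-type models were at 0.943 and 2.42 FPKM and the knockout model at 0.896 FPKM. The difference in Phlda2 thus depended on which models were counted.

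Slc22a18, a transporter of the major facilitator family, was at 0.699 FPKM (0.326 to 1.16) in wild-type RNA and 2.27 FPKM (1.14 to 3.41) in knockout RNA (143473755 to 143499332, plus strand). The value was 3.24 times as high, a log2 ratio of 0.94 on the scale with the pseudocount, and the bounds just overlapped. NM_008767 alone was at 0.699 and 1.44 FPKM, and an assembled model of 7 exons, with 70.2% of the coding sequence, added 0.829 FPKM in knockout RNA. NM_001042760 was listed at 0 in both.

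Cd81, a tetraspanin of the cell surface that most cells carry, was the most abundant of the 10 genes, at 79.6 FPKM (74.97 to 84.5) in wild-type RNA and 113.6 FPKM in knockout RNA (143052750 to 143067930, plus strand, 8 exons). The log2 ratio was 0.51 on the deposited values and 0.30 against the median gene, and the bounds did not overlap. The knockout FPKM lay above its own upper bound of 109.5. Among 6 partner and tetraspanin genes, 5 were higher and 0 reached 2-fold. Cd9 was at 67.8 and 120.5 FPKM, Cd63 at 98.4 and 147.9 and Cd151 at 43.8 and 63.6. The CD81 partner genes Ptgfrn and Igsf8 were at 12.04 and 11.1 and at 19.1 and 20.7 FPKM. The knockout value of Cd9 includes 2 assembled models and its wild-type value 0. The highest read depth of a single Cd9 transcript was 214.0 and 215.5 per base. The summed level of the 6 genes was 257.2 and 383.8 FPKM. The summed levels of the somatic markers were also higher, as given above. Genes of 1000 to 2000 nt, to which Cd81 belongs, had a median log2 ratio of 0.41. The part of either in the values of Cd81 and these 6 genes was not tested.

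Of the 15 neighbours of the Kcnq1 domain 12 were compared, 10 were higher on the deposited values and 9 lay above the median gene, with a median log2 ratio of 0.52 beside 0.22 over all genes compared. The longest RefSeq transcripts of the 12 ran from 565 nt (Ins2) to 4383 nt (Trpm5), and the part of length was not tested. Cdkn1c, the cell cycle inhibitor p57 and a maternally expressed target of Kcnq1ot1, was at 19.9 FPKM (16.4 to 23.4) and 28.4 FPKM (25.4 to 31.3). Ascl2, a transcription factor of the placenta, was at 5.94 and 10.1 FPKM, with overlapping bounds. Its knockout value includes 2 assembled models and its wild-type value 0, with highest transcript read depths of 18.6 and 15.9 per base. Tssc4 was at 22.9 and 39.2 FPKM and Trpm5, a cation channel of taste cells, at 2.42 and 5.48 FPKM, both with bounds apart. Tnfrsf26, a receptor of the tumour necrosis factor family, was the single neighbour at least 2-fold higher on the log2(FPKM + 1) scale, at 0.220 FPKM (0.103 to 0.352) and 2.47 FPKM (1.70 to 3.27). Its relatives Tnfrsf22 and Tnfrsf23 were at 0.785 and 1.35 and at 0.343 and 0.424 FPKM.

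Toward the outer end, Nap1l4, a histone chaperone gene, was the most abundant neighbour and nearly level at 104.8 and 109.3 FPKM. Cars was at 16.2 and 21.4 FPKM, Osbpl5 at 4.53 and 7.15 and Nadsyn1 at 7.02 and 13.8, all with bounds apart. Dhcr7, the last enzyme of cholesterol synthesis, was lower, at 44.1 and 35.9 FPKM, and so was Ins2 at 2.51 and 1.61, with overlapping bounds. The wild-type value of Dhcr7 includes 1 assembled model and its knockout value 0. The highest read depth of a single Dhcr7 transcript was higher in knockout RNA, at 80.3 and 120.8 per base. Th and Tspan32 stayed under 1 FPKM.

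**Figure D4:**
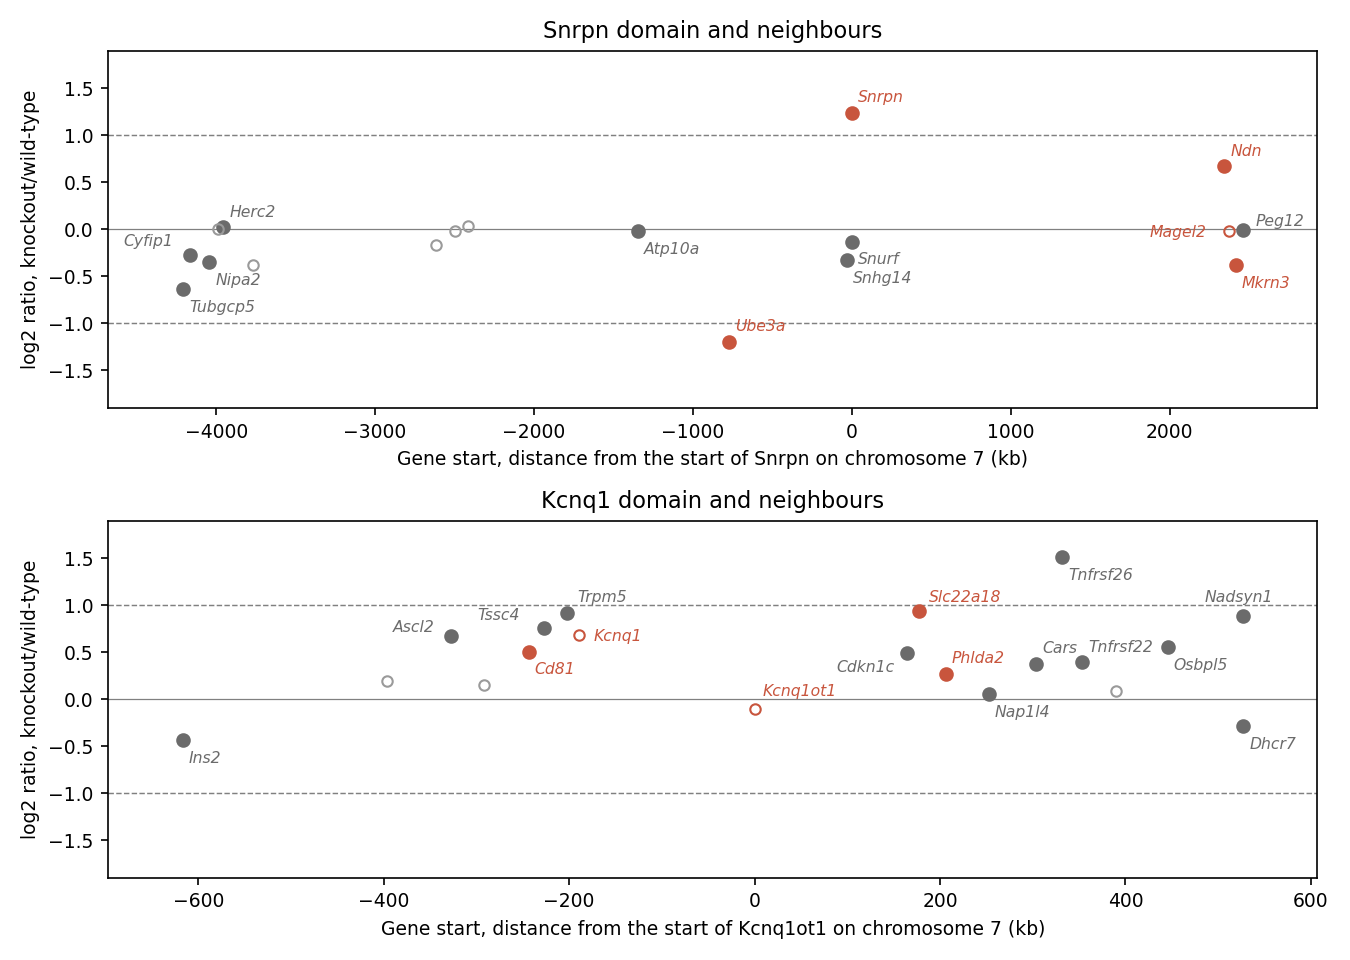
Log2 ratio, knockout over wild-type, of genes of the Snrpn domain (top) and Kcnq1 domain (bottom) by the distance of the gene start from that of Snrpn or Kcnq1ot1 in kb. Red points are the genes of the domains, grey points their neighbours, open points (red or grey) genes under 1 FPKM in both libraries, and dashed lines mark 2-fold. In the Snrpn domain Snrpn and Ube3a lie beyond the dashed lines on opposite sides, and in the Kcnq1 domain 10 of the 12 neighbours compared lie above 0.

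Of 9 genes for proteins that protect imprints after fertilisation, or maintain DNA methylation, 3 were higher and 6 lower in knockout RNA. On the log2(FPKM + 1) scale 0 of the 9 were 2-fold higher (7.7% of all genes compared). On that scale 1, Arid4b, was 2-fold lower (3.51% of all genes compared), at 15.96 and 7.001 FPKM. The median log2 ratio of the 9 was -0.55, beside 0.22 over all genes compared. Zfp57 was at 4.48 and 7.31 FPKM with overlapping bounds, and its partner Trim28 was at 134.5 and 170.0 FPKM. Zfp445 was at 19.4 and 12.9 FPKM, Ctcf at 20.6 and 13.8, Arid4a at 9.60 and 5.42 and Dppa3 at 1.74 and 0.438, all lower with bounds apart. The values of Zfp445 include 4 and 1 assembled models and those of Ctcf 1 and 0. The highest read depth of a single transcript was higher in knockout RNA for Zfp445 (23.8 and 45.1 per base) and Ctcf (38.4 and 47.6). It was lower for Arid4a (30.1 and 18.7) and Dppa3 (5.56 and 1.42). Dppa3, 0.251 times as high in FPKM, fell short of 2-fold through the pseudocount (log2 ratio -0.93). Dnmt1, the maintenance methyltransferase, was at 86.3 and 92.3 FPKM and its guide Uhrf1 at 70.2 and 65.5 FPKM, both with overlapping bounds.

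Between the outermost genes of each domain the libraries also held assembled models of 300 nt or more that belong to no RefSeq gene on the same strand. In the Snrpn domain, 3191 kb from Ube3a to Mkrn3, there were 10 in wild-type RNA and 7 in knockout RNA, none above 3.43 FPKM, and in the 449.8 kb from Cd81 to Phlda2 there were 0 in either. In the wild-type library 3 unspliced models stood between Snrpn and its downstream transcripts, at 59978104 to 59979004 (2.40 FPKM, over Snord64), 59976068 to 59976699 (2.19 FPKM) and 59977189 to 59977939 (2.06 FPKM). In the knockout library no model overlapped them. A spliced model of 6 exons at 62204095 to 62209507, 138.8 kb from Ndn, was at 2.07 FPKM in wild-type RNA and also had no counterpart. The highest knockout model, at 61927805 to 61928650 beside A230057D06Rik, was at 3.43 FPKM (2.35 to 4.53), and overlapping wild-type models summed to 1.89 FPKM.

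**Figure D5:**
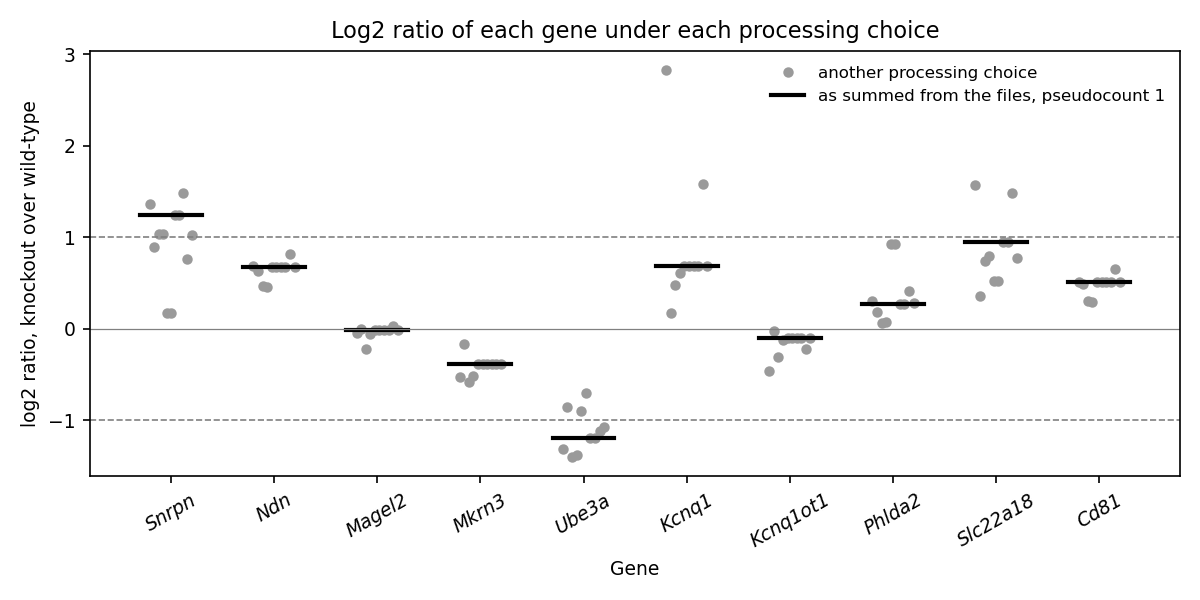
Log2 ratio, knockout over wild-type, of each gene as summed from the files with a pseudocount of 1 (black bars) and under each other processing choice (grey points), with dashed lines at 2-fold. Snrpn spans 0.17 to 1.48 and Ube3a -1.40 to -0.71 without changing sign, and Magel2 is the gene whose points lie on both sides of 0.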

How the data were processed

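Poly(A) RNA of SPCs was copied with random primers and read as paired ends, per the labels' protocols. CASAVA 1.9, TopHat2 2.0.8, Cufflinks 2.1.1 and mm10 are named without settings, per the submitters' processing notes. The authors deposited for each transcript an FPKM, its bounds, a coverage (used in 1 alternative and as read depth) and a score, which was not used. Counts are not in the files, so fragment numbers behind a value are unknown.

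RefSeq identifiers (30079) were named by RefSeq accession (29451), by GENCODE M21 accession (177), by the name in the files (152) or by exon overlap with GENCODE M21 (296), and 3 stayed unnamed. An assembled model was added, from 300 nt up, to whichever gene on its strand shared most exon bases, and strandless models only with a share of 0.5 or more. Gene values and bounds are sums. The ratio log2((knockout + 1)/(wild-type + 1)) was taken for genes whose longest RefSeq transcript has at least 300 nt and whose value reaches 1 FPKM in either library. The ratio was tested on simulated data. All 10 genes, fixed lists of neighbours, partners and markers, and the strongest models of no gene are named, and all were chosen with earlier results of these data known. The values of 1 listed neighbour are not reported here. Python 3.11.15 and numpy 2.4.6 were used.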

Additional observations from a re-analysis of the deposited data

Results flagged for a closer look

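Assembled models of the knockout library that belong to no gene on their strand, and that no wild-type model overlaps, were found at 3 places in the Snrpn domain. An unspliced model at 62109261 to 62110180, 63.0 kb from the nearest RefSeq gene, was at 1.28 FPKM (bounds 0.670 to 1.89). A model at 59280619 to 59281467, assigned to the minus strand inside the span of Ube3a, was at 1.09 FPKM (0.528 to 1.65), and 67.1% of its bases lie in Ube3a exons of GENCODE M21. A model at 60582039 to 60584284, 441.8 kb from Snrpn, was at 1.01 FPKM (0.674 to 1.35). The wild-type library likewise held models with no counterpart, given above.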

How the results depend on the processing

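No paired analysis was possible because there was 1 library per genotype, and none could be left out. Of the 10 genes, 9 kept the sign of their log2 ratio under every alternative, and Magel2 ranged from -0.22 to 0.03. This was in part fixed in advance, as a change of pseudocount cannot change a sign. For the 6 genes with RefSeq transcripts alone, RefSeq transcripts only, the most abundant RefSeq transcript, models under 300 nt and models on either strand returned the same value. The number of genes at least 2-fold higher, 1 (Snrpn), became 2 with a pseudocount of 0.1 or coverage (Slc22a18 added), 3 at 1.5-fold (Ndn and Slc22a18 added), and 0 with a pseudocount of 5, RefSeq transcripts only, the most abundant RefSeq transcript, the exon level (summed models per exon base, on either strand) or 4-fold. The number at least 2-fold lower, 1 (Ube3a), became 0 with a pseudocount of 5, RefSeq transcripts only, the most abundant RefSeq transcript or 4-fold. Centring, upper-quartile scaling, models under 300 nt, models on either strand, no filter and a filter of 10 FPKM changed neither number, nor did bounds apart or Snurf summed with Snrpn, 2 alternatives chosen after seeing the data. The either-strand choice adds only models that overlap RefSeq exons. It could not reach the models beyond the Ube3a 3′ end, which share 0 bases with the RefSeq exons of Ube3a. The longer of those models differed by less than Ube3a, and the shorter ones in the other direction. Adding them to Ube3a would make its difference smaller, short of 2-fold on the log2(FPKM + 1) scale. Over all genes the 2-fold shares were 7.7% higher and 3.51% lower as deposited, 4.91% and 5.43% after centring, and 10.4% and 10.1% with RefSeq transcripts only. They were 11% and 4.96% with a pseudocount of 0.1, 3.01% and 1.17% with a pseudocount of 5, 10.3% and 9.83% with the most abundant transcript, 13.5% and 3.78% with coverage, and 4.86% and 2.93% at the exon level. Kcnq1 ranged from 0.17 to 2.83 with the pseudocount. Genes under 1 FPKM, Magel2, Kcnq1 and Kcnq1ot1, are limited by depth.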
